A study of Drosophila pseudoobscura with 4 samples.

Results

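The microRNAs dps-mir-263a, dps-mir-263b and dps-mir-210a were chosen by name, for the roles of their *D. melanogaster* orthologs in sensory bristles and photoreceptors, and are 3 of the 231 microRNAs in the count tables. Another name that was looked for, dps-mir-210b, was not analysed here. The libraries were small RNA from 2 male and 2 female samples of *D. pseudoobscura*, a fruit fly in which a former autosome forms an arm of the X, the neo-X. The adults came from 1 stock with no genetic or drug treatment, lived at 18 °C under a daily cycle with 12 h of light, and were 7 days old at collection. The females are given as unfertilized in the study's text, and the number of flies per sample is not given in the sources used here. Each of the 2 sequencing runs held 1 male and 1 female library, and the replicate number in the labels was taken as the run. The study's text calls the 2 samples of each sex biological replicates. Nothing there or in the labels says whether they came from separate cultures, so the p-values measure only the spread between these samples. Whole flies mix all tissues, and fewer cells of a type cannot be told apart from less of a microRNA in each cell.

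MicroRNAs are short RNAs that are cut from hairpin precursors and reduce the output of messenger RNAs to which they pair. In *D. melanogaster*, mir-263a and mir-263b are paralogs that protect the mechanosensory bristles of the eye from cell death by holding down the pro-apoptotic gene *hid*, and mir-263a also acts in the intestine. The microRNA mir-210 is known there from photoreceptors and other cells of the visual system and from clock neurons, and its loss or excess damages the retina. In *D. pseudoobscura* these roles are background only, since no tissue was separated in these samples.

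On the assembly UCI_Dpse_MV25, dps-mir-263a is annotated on chromosome 4 from 25187759 to 25187850 and overlaps the long noncoding RNA gene LOC26533108. Its paralog dps-mir-263b lies on the X from 46111991 to 46112081 and overlaps the protein-coding gene *meru*. The gene table holds spans without exons or introns, so the part of the host gene is not given. The precursor of dps-mir-210a lies on the X from 38870244 to 38870337, between genes, 526 bases from LOC4814377 and 19172 bases from *wupA*. Of the microRNAs in the tables, dps-mir-969 lies 6834 bases from dps-mir-210a, and none lies within 10 kb of either mir-263 precursor. The near dps-mir-969 had 1 and 2 male reads and 0 and 1 female reads, far fewer than dps-mir-210a.

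In the order of the runs, the male libraries totalled 5697 and 67076 reads and the female libraries 7111 and 42754. A count of 0 allows a share of up to 3 reads, which is 0.0527% and 0.00447% of the male libraries and 0.0422% and 0.00702% of the female libraries. Since no molecular identifiers were used, several reads can stem from 1 molecule, and these limits and the exact Clopper-Pearson intervals (95%) given with shares cover counting error only. Tissue markers differed between libraries. The ovary markers dps-mir-318 and dps-mir-994 summed to 0.0351% and 0.00895% of the reads in males and to 4.71% and 8.12% in females. The muscle marker dps-mir-133 was 1 of the 2 listed, since dps-mir-1 was not analysed here. Its shares were 0.105% and 0.270% for the male libraries, against 0.0422% and 0.117% for the female libraries. The male share was higher within each run, although the male library of the first run lay below the female library of the second. With the edgeR test and thresholds given below, dps-mir-133 was called male-biased (log2 fold change of males over females 1.46, edgeR adjusted p = 0.0699). Of the neuron marker dps-mir-124 there were 3 and 16 male and 1 and 10 female reads. No marker of the eye or of bristles was listed. The part of these tissues in the values below was not tested.

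The paralogs were far apart in level. Reads of dps-mir-263a numbered 176 and 1772 in the male libraries of both runs, and 279 and 1786 in the female ones. As shares these were 3.09% (interval from 2.66 to 3.57%) and 2.64% (from 2.52 to 2.77%) of the male libraries. The female shares were 3.92% (from 3.48 to 4.40%) and 4.18% (from 3.99 to 4.37%). Both female shares were thus above both male shares, while the intervals of the first run overlapped. It was among the most abundant microRNAs everywhere, at rank 6 and 9 in males and 7 and 5 in females. For dps-mir-263b the male libraries held 1 and 11 reads, and the female ones 0 and 3. It took 0.0176% and 0.0164% of the male libraries and 0.00702% of the female library of the second run, and only the male library of the second run held more than 3 of its reads. Of the reads of both paralogs, dps-mir-263b made up 0.565% (from 0.0143 to 3.11%) and 0.617% (from 0.308 to 1.10%) in males. In females it made up 0 of 279 reads, with an exact interval up to 1.31% (1.08% by the limit of 3 reads). The second female library had 0.168% (from 0.0346 to 0.489%). In the second run the reads of dps-mir-263a outnumbered those of dps-mir-263b by a ratio of 161 in the male library and 595 in the female library. The counts were made on precursors, so the arms of a hairpin are not separated, and how reads that match both copies were counted is not stated.

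The level of dps-mir-210a lay between the paralogs in all 4 libraries. The male libraries held 12 and 614 of its reads, or 0.211% (interval from 0.109 to 0.368%) and 0.915% (from 0.845 to 0.990%). The female libraries held 9 and 209, or 0.127% (from 0.0579 to 0.240%) and 0.489% (from 0.425 to 0.560%). The male share was above the female share in both runs, with overlapping intervals in the first run only, but the male library of the first run was below the female library of the second, so the sexes overlapped. Its rank rose with the run, from 29 to 15 in males and from 32 to 22 in females.

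**Figure D1:**
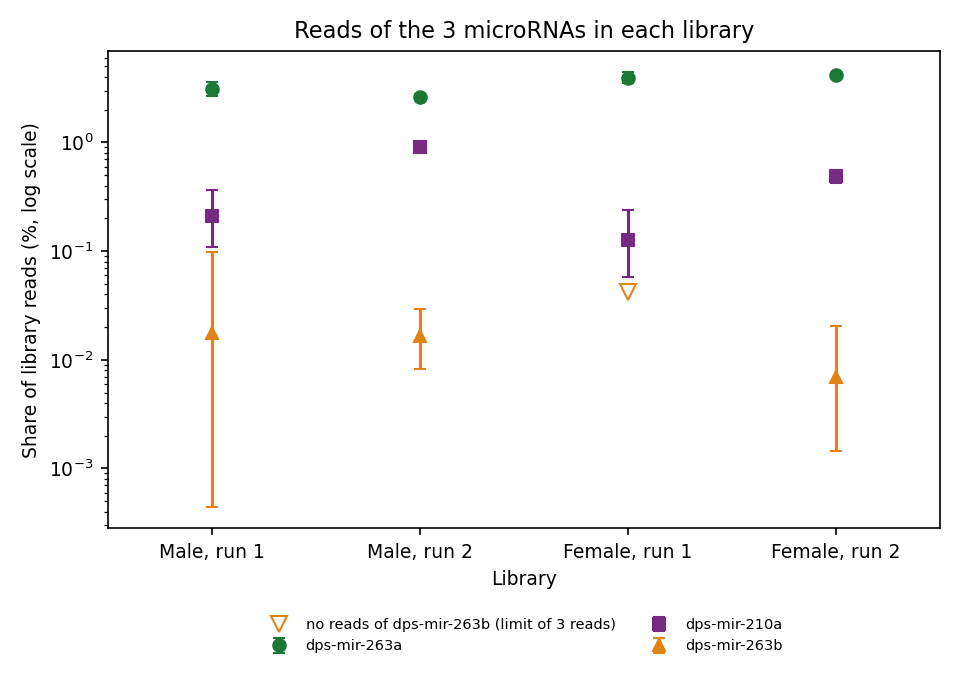
Share of library reads (%, log scale) of the 3 microRNAs in each of the 4 libraries, with exact 95% intervals as bars. The open triangle marks the limit of 3 reads, 0.0422%, in the female library with no dps-mir-263b read. The share of dps-mir-263a stays between 2.64% and 4.18%, while that of dps-mir-210a is lower in the first run than in the second in both sexes.

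To ask how the members compare with the other microRNAs, levels were ordered by CPM, a library's counts scaled to a common total after TMM correction of the totals. Over the 4 libraries dps-mir-263a had a mean of 34749 ± 8382 CPM (SD, n = 4) and had rank 6 of the 231. Its neighbors in this order were dps-mir-14, a regulator of fat metabolism and cell death in *D. melanogaster*, with 60191 ± 21841 CPM, and dps-mir-10, a microRNA of the Hox clusters, with 30868 ± 12364 CPM. The ranges of both overlapped with that of dps-mir-263a. With 4138 ± 3302 CPM (SD, n = 4) dps-mir-210a had rank 22, next to dps-mir-284 (4474 ± 2094) and dps-mir-9a (4079 ± 1081). Its range, from 1478 to 8878 CPM, covered those of both neighbors. The paralog dps-mir-263b had rank 69 with 103 ± 91.9 CPM, next to dps-mir-2520 and dps_18, and levels this low cannot be ordered.

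The comparison between males and females used edgeR's quasi-likelihood test, with the run and the sex in the model, over the 84 microRNAs with a DESeq2 base mean (mean count after scaling) of at least 1. A microRNA was called sex-biased at an FDR under 10% and a difference of at least 25%. Over the 84 microRNAs 13.1% were called, and none of the 3 members was. Log2 fold changes are male over female, and a negative value marks a higher level in females. For dps-mir-263a, CPM were 35034 and 25620 in males and 45813 and 32529 in females, and the sexes overlapped on this scale. The log2 fold change of dps-mir-263a came to -0.37 with a standard error of 0.43 (edgeR, Benjamini-Hochberg adjusted p = 0.707). The CPM of dps-mir-210a were 2389 and 8878 in males and 1478 and 3807 in females, which overlapped as well. Its log2 fold change came to 1.03 with a standard error of 0.46 (edgeR adjusted p = 0.238). This value was -0.19 without the second male library, 0.01 without the first female library and 1.96 without the second female library. These fits left the run out, and the libraries left were unevenly spread over the runs, between which dps-mir-210a itself differed. They therefore cannot separate the weight of 1 library from the run. For dps-mir-263b, CPM were 199 and 159 in males and 0 and 54.6 in females, where only the 11 reads of 1 male library lay above the floor. Its fitted log2 fold change of 1.66 had a standard error of 0.92 (edgeR adjusted p = 0.338), and it was 1.00 without the first female library and 5.20 without the second, where the remaining female library has no read and the fitted value is no bound. In the second run its share was 2.34 times higher in the male library, with a counting interval from 0.617 to 13.0, so that a difference was not detectable at this depth. In edgeR 0 of the 3 had an unadjusted p-value under 0.05, beside 21 of the 84. In limma-voom 2 of the 3 did, beside 23 of the 84, and 0 were called, beside 7.14% of the 84. In DESeq2 1 of the 3 did, beside 21 of the 84, and was called, beside 20.2% of the 84.

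The call that depended on the method was that of dps-mir-263a. DESeq2, the main method of the study, gave it a log2 fold change of -0.72 (adjusted p = 6.62e-05), while limma-voom gave -0.36 (adjusted p = 0.464). The scaling moves these values, since over the 84 microRNAs the median of the log2 fold changes was 0.46 in edgeR with TMM and 0.06 in DESeq2. Relative to that median, dps-mir-263a was at -0.83 in edgeR and -0.78 in DESeq2, dps-mir-210a at 0.57 and 0.63, and dps-mir-263b at 1.20 and 1.26. With DESeq2's size factors and edgeR's test kept, the log2 fold change of dps-mir-263a was -0.71 and its adjusted p was 0.518. With no replicate block, edgeR called none of the members, beside 9 of the 84 microRNAs tested. With so few called among the 84, the lack of a call does not set the members apart.

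**Figure D2:**
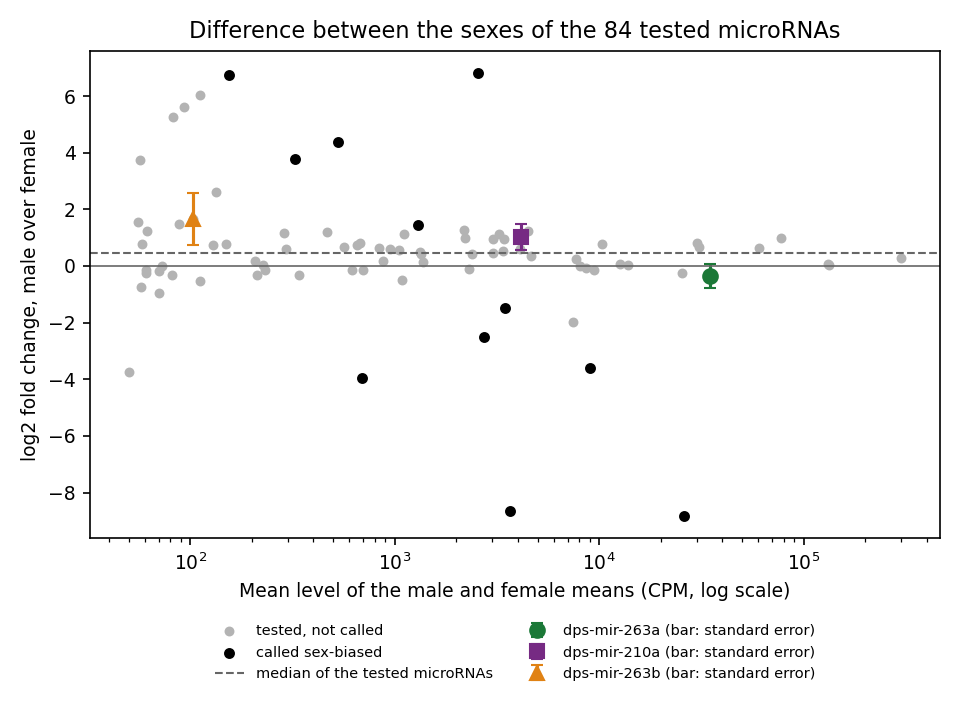
Log2 fold change of males over females against the mean of the male and female mean levels (CPM, log scale) for the 84 tested microRNAs, with the 11 called ones in black and the standard errors of the members as bars. The members dps-mir-263a at -0.37, dps-mir-210a at 1.03 and dps-mir-263b at 1.66 lie within the cloud of microRNAs that were not called, around the median of 0.46 (dashed line).

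The directions of dps-mir-263a and dps-mir-210a were the same within both runs. The male minus female differences in log2 CPM were -0.39 and -0.34 for dps-mir-263a and 0.67 and 1.21 for dps-mir-210a. For dps-mir-263b the difference in the second run was 0.94, and the 1 male and 0 female reads of the first run give no direction. As a ratio of shares in the second run, which needs no TMM factor, dps-mir-263a was 1.58 times higher in the female library (counting interval from 1.48 to 1.69) and dps-mir-210a 1.87 times higher in the male library (from 1.6 to 2.2). In the first run these ratios were 1.27 (from 1.05 to 1.54) and 1.66 (from 0.644 to 4.47). These intervals compare the libraries of a run and not the sexes.

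The difference between the runs was larger for dps-mir-210a than the difference between the sexes. Its share was 4.35 times higher in the second run in males (counting interval from 2.47 to 8.46) and 3.86 times higher in females (from 2.00 to 8.57). On log2 CPM the increase was 1.87 in males and 1.33 in females, at rank 15 and 17 of the 84, where the median microRNA changed by 0.28 and 0.11. The share of dps-mir-263a in the second run was 0.855 times that in the first in males (from 0.732 to 1.00) and 1.06 times in females (from 0.938 to 1.21), so that no direction was shared on this scale. On log2 CPM it changed by -0.45 in males and -0.49 in females, at rank 59 and 61. The runs also differed in depth in both sexes, by the totals given above, and the part of depth in the increase was not tested.

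A ratio of reads within a library does not depend on the scaling between libraries, and it compares the sex difference of one member with that of another. There were 14.7 and 2.89 reads of dps-mir-263a for each read of dps-mir-210a in males, and 31.0 and 8.55 in females. The ratio was lower in males in each run, by -1.06 and -1.56 on the log2 scale with 0.5 added to each count, yet the male library of the first run was above the female library of the second. The male mean of the log2 ratio was 2.67 ± 1.62 and the female mean 3.99 ± 1.26 (SD over 2 libraries each), a difference of -1.31 (two-sided exact permutation p = 0.667, also 0.667 when adjusted over the 3 pairs by Benjamini-Hochberg). It was -0.17 without the second male library and -2.46 without the first, where the libraries left were unevenly spread over the runs. For dps-mir-263a over dps-mir-263b the log2 ratios were 6.88 and 7.27 in males and 9.13 and 9.0 in females, a difference of -1.99 (exact permutation p = 0.333, adjusted 0.667). The female values there rest on 0 and 3 reads of dps-mir-263b, and the first is set by the 0.5 added to the count. With nothing added to the counts, the limit of 3 reads puts the first female ratio at 93, or 6.54 on the log2 scale. The male ratios with nothing added were 176 and 161, so that the order of the sexes is not fixed for this pair. For dps-mir-210a over dps-mir-263b the difference was -0.68 (exact permutation p = 0.667), and it was positive without the first male library (0.66) or the second female library (0.15). With 2 libraries a sex the smallest p that the exact test allows is 0.333, so that no pair could pass. Differences within runs, tested by sign flips as a replicate block, gave an exact permutation p of 0.5 for each pair, the smallest that 2 pairs allow.

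**Figure D3:**
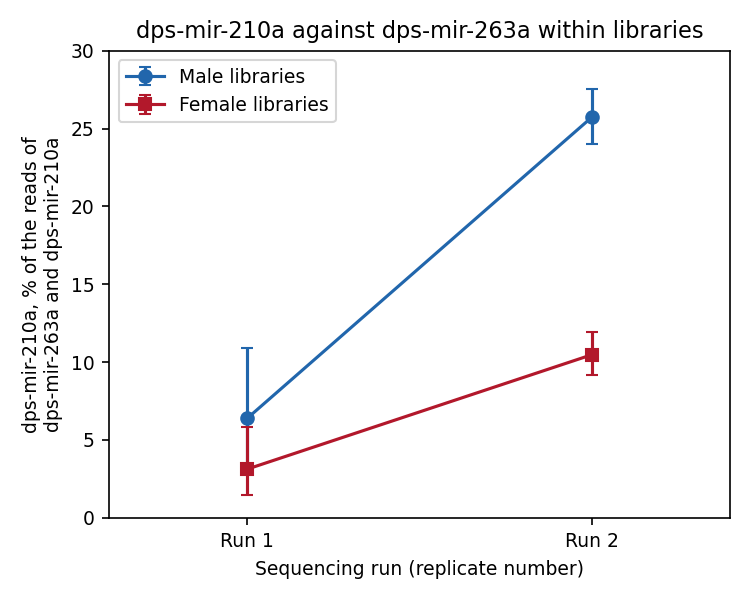
Reads of dps-mir-210a as a percentage of the reads of dps-mir-210a and dps-mir-263a together, by sequencing run, for the male (circles) and female (squares) libraries, with exact 95% intervals as bars. The values are 6.38% and 25.7% in males and 3.13% and 10.5% in females, so the share is higher in the second run in both sexes and higher in males within each run.

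Other microRNAs known from sensory organs in *D. melanogaster* were taken with the members as a list of 7, of which dps-mir-996 was not analysed here and 5 were tested. Of the 5, 0 were called in either direction, beside 13.1% of all 84 tested. The log2 fold change was positive for 3 of them and negative for 2. Their median was 0.60, beside 57 positive values of 84 and a median of 0.46 over all tested. The abundant one besides the members was dps-mir-9a, which limits the number of sensory organ precursors, with 21 and 379 male and 23 and 158 female reads (log2 fold change 0.60, edgeR adjusted p = 0.513). The photoreceptor microRNA dps-mir-7 had 10 reads in the male and 8 in the female library of the second run and 0 in the first. For dps-mir-279, which acts in olfactory neurons, there was 1 read in all.

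As mir-263a and mir-263b act against cell death, 17 microRNAs known in *D. melanogaster* from the control of apoptosis were also taken, the mir-263 paralogs included. Of these 16 were in the tables, 3 had no read in any library, and 8 were tested. None of the 8 was called, beside 13.1% of all 84 tested. Their median log2 fold change was 0.02, beside 0.46 over all tested, and 5 of the 8 were positive, beside 57 of 84. The values ran from -0.37 for dps-mir-263a to 1.66 for dps-mir-263b. The lowest, with a standard error of 0.43, was close to -0.32 for dps-mir-2b-2 (standard error 0.49). The highest had a standard error of 0.92 and rests on few reads, so the paralogs are not set apart by these extremes. The most abundant were dps-bantam, a growth microRNA that also represses *hid*, with a log2 fold change of 0.03 (edgeR adjusted p = 0.990), and dps-mir-14, with 0.62 (adjusted p = 0.446). Among the 26 microRNAs with at least 10 reads in every library, dps-bantam had the smallest distance to dps-mir-263a. It was 0.57 in centred log2 CPM over the 4 libraries, before dps-mir-8 at 0.72 and dps-mir-317 at 0.91, while the median was 1.51. In the first run all 3 were higher in the female library, as dps-mir-263a was. In the second run all 3 were higher in the male library, unlike dps-mir-263a. A small distance can also reflect little variation, so no shared pattern is read from it. Neither dps-mir-210a, with 9 reads in a female library, nor dps-mir-263b had enough reads for this comparison.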

How the data were processed

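Small RNA libraries of 2 male and 2 female samples were made with the TruSeq kit and sequenced on a MiSeq. The authors trimmed adapters with Cutadapt, mapped reads with HISAT2 and counted them with featureCounts on annotated precursors, leaving out microRNAs identical to several regions, and deposited raw read counts without normalization. Each table has 231 microRNAs and 1 blank line.

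Counts were tested with edgeR 4.0.16 (TMM) in R 4.3.3, with run and sex in the model as in the study. DESeq2 1.42.0 and limma 3.58.1 (voom) were alternatives, with other scalings and filters and leaving out each library. The study itself tested with DESeq2 (local fitting), and with limma-voom as its alternative. The study states that each run held a male and a female library, and that libraries with the same replicate number shared a run was assumed. Changes between runs in males and females had a Pearson r of 0.567 across the 84 tested microRNAs. Standard errors were derived from edgeR's F statistic (the size of the log2 fold change over the root of F) and are approximate. Log2 CPM used a prior count of 2.

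Members and lists were chosen with earlier results of these data known. Named microRNAs were the members, called and the 2 most abundant microRNAs of each list, neighbors in level, and the 3 nearest patterns. Positions are those of the study's table of precursors, and gene spans are from RefSeq. Sequences, and with them shared seeds, were not analysed here.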

Additional observations from a re-analysis of the deposited data

How the results depend on the processing

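The number of called microRNAs was 11 of 84 in the edgeR fit, 9 with no replicate block, 17 with DESeq2 and 6 with limma-voom, and it fell to between 2 and 6 when 1 library was left out, where 3 libraries allow a model of the sex alone and the lone library of a sex is assumed to vary like the others. The other settings gave from 9 to 16, with unlike numbers tested. With no filter on low counts it was 9 of 131, and with edgeR's expression filter 10 of 55. For dps-mir-263a, DESeq2 alone made a call (-0.72, adjusted p = 6.62e-05), and adjusted p-values over its 12 alternatives ran from 6.62e-05 to 0.995, with the log2 fold change negative in each, from -0.87 to -0.16. For dps-mir-210a the adjusted p-values ran from 0.165 to 0.995, and the log2 fold change with 1 library left out ran from -0.19 (without the second male library) to 1.96. It was 0.01 without the first female library, and these fits are unbalanced over the runs. For dps-mir-263b the log2 fold change ran from 1.00 to 5.20, and adjusted p-values ran from 0.165 to 0.995 over 11 alternatives, since edgeR's expression filter (filterByExpr) removes it. The difference between the sexes in the log2 ratio of dps-mir-210a over dps-mir-263b ran from -2.02 to 0.66 with 1 library left out, and was positive without the first male library (0.66) and without the second female library (0.15). The other pairs kept their direction, also with 1 read added to each count, from -2.46 to -0.17 for dps-mir-263a over dps-mir-210a and from -2.18 to -1.63 for dps-mir-263a over dps-mir-263b. The replicate block changed no call of a member. With dps-mir-8, dps-mir-318 and dps-mir-994 taken out of the totals, the mean share of dps-mir-263a moved from 2.87% to 4.14% in males and from 4.05% to 6.17% in females, and that of dps-mir-263b in males from 0.0170% to 0.0245%. Depth limits dps-mir-263b throughout.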

Other observations

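The table of precursors used for the positions places dps-mir-210a and dps-mir-263b on the XR arm (Muller element D), the neo-X, at a distance of 7.24 Mb from each other. The genes that flank dps-mir-210a in the RefSeq table include *ND-75*, *Trxr1* and *sni* on one side and *wupA* on the other. In *D. melanogaster* the orthologs of these genes, and mir-210 itself, are on the X, whereas the neo-X arm corresponds to 3L. The gene that spans dps-mir-263b, *meru*, and the nearby *fwe* are on 3L there. The study reports that every ortholog it compared kept its chromosome between the species, and its text does not name mir-210. The arm assigned to dps-mir-210a was not tested, and no comparison above uses it.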
